A study of Mus musculus with 6 samples.

Results

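The mitochondrial ribosomal protein genes were taken as every row of the deposited hippocampal expression table whose symbol begins with Mrpl or Mrps and a number. The rule found 81 of 16060 rows, 50 named for the large subunit and 31 for the small subunit. Among them, 77 are annotated as protein-coding genes, 48 of the large and 29 of the small subunit, and 4 are processed pseudogenes. The protein-coding members lie on 17 chromosomes, with 10 of them on chromosome 11.

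The mitochondrial ribosome sits in the mitochondrial matrix and translates the messenger RNAs of mitochondrial DNA, which encode core subunits of the respiratory chain and of the ATP synthase. Its RNAs come from mitochondrial DNA, whereas all of its proteins are encoded in the nucleus, made in the cytosol and imported. The small subunit binds the messenger RNA and reads its codons, and the large subunit joins the amino acids and releases the chain toward the inner membrane. Part of the proteins have counterparts in the bacterial ribosome, and the rest were added during the evolution of mitochondria.

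Hippocampi came from C57BL/6 mice, described in the methods as adult males. Each library was taken to stand for 1 mouse, though the methods do not state whether RNA was pooled over mice. The Control group (n = 3) received saline by intraperitoneal injection, and the MA group (n = 3) received methamphetamine (MA), a psychostimulant that releases dopamine, in weekly escalating doses over 3 weeks. No transgene, deletion or further agent was given to either group, and brains were collected after behavioral tests. The deposited RNA-seq values are RPKM-type levels, taken as log2 of the level plus 1. Fold changes below are differences of these log2 values, the MA mean less the Control mean as the libraries are labelled, and they understate changes of low genes.

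The libraries shared 1 highest value, and no read totals came with them, so depth is unknown. The library labelled MA replicate 3 stood apart: its mean Pearson correlation with the others of its group was 0.978 across 13321 genes, against 0.984 to 0.993 for the other libraries, and it listed no gene at 0 where the others listed 259 to 437. Values that rest on it are therefore also given without it. All 7 markers of hippocampal neurons were measured in each library. For 2 of the 7, each MA library lay below each Control library (10.2% of all tested genes). The sum of the 7 was 869 to 940 in the Control libraries and 805 to 965 in the MA libraries. Also lower in this way were 1 of 4 astrocyte and 1 of 4 microglial markers, but 0 of 4 interneuron and 0 of 4 oligodendrocyte markers. The summed markers of choroid plexus, of red blood cells and of endothelium moved with the groups. The summed level of 6 choroid plexus markers was 64.8 to 419 in the Control libraries and 1774 to 5081 in the MA libraries, and that of 5 erythroid markers was 1599 to 2024 and 3319 to 4378. None of these 2 lists' markers was at 0 in any library. For all 6 and all 5 of them, each MA library lay above each Control library (7.32% of all tested genes). At a limma adjusted p under 0.05, 3 of the 6 and 3 of the 5 were called, all higher in MA. Over all tested genes 0.263% were called in either direction. The sum of 3 endothelial markers was 43.9 to 46.6 in the Control libraries and 50.5 to 60.5 in the MA libraries. On its own, 1 of the 3 was higher without overlap (7.32% of all tested genes). In MA replicate 3, the sum of 4 astrocyte markers was 225, against 301 to 357 in the other libraries, and that of 4 microglial markers was 47.5, against 53.2 to 57.5. The part of any of these markers in the results below was not tested. In whole tissue, fewer cells of a type cannot be told apart from less RNA per cell.

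The regions around the start sites of these genes are shown because the factors Nrf1, Gabp and Yy1 are known regulators of nuclear genes for mitochondrial proteins. The RefSeq promoter table (GRCm38.p6) holds 74 promoters of 68 member genes, each with 250 bases before and 50 bases from the start on. The letters CCGGAAG of the Gabp motif, searched on both strands, were present for 25 of the 68 member genes, or 36.8%, and for 9.9% of all genes in the table. The Nrf1 core CATGCGC was present for 8 of 68 (11.8%, against 4.4% of all genes), and the Yy1 core ATGGCGG for 13 of 68 (19.1%, against 4.7%). All Yy1 matches but that of Mrps11, at base -109, began after the start, from base 3 in Mrps5 to base 31 in Mrpl50. These later matches read on the strand of the gene except in Mrps2. The Yy1 letters open with ATG, as a start codon does, and whether they lie in coding sequence was not examined. All these motif counts describe letters in a window and carry no test.

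In the lines that follow, each run holds 90 bases before the RefSeq start and the 30 bases from it on, 5′ to 3′ on the strand of the gene, and capitals mark matches to the 3 motifs on either strand. Mrps5 and Mrpl42 had the smallest p-values of the protein-coding members, Mrps22 was lower in each MA library, Mrps21, Mrpl52 and Mrpl33 were among the highest in level, Mrps18a is a large subunit protein despite its symbol, and Mrpl32 was added after the matches were seen because it held 4. The RefSeq start need not be the outermost start in GENCODE M21, from which gene spans and distances between neighbours are taken, and the runs of Mrps5, Mrpl33 and Mrpl32 lie wholly inside the GENCODE spans of their genes.
Mrps5 (chr2:127587336-127587455, plus strand): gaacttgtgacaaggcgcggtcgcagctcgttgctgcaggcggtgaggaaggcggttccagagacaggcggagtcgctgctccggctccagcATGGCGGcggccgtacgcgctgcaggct
Mrpl42 (chr10:95501920-95502039, minus strand): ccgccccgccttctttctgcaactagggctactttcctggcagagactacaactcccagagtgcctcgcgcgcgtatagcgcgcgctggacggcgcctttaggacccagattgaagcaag
Mrps22 (chr9:98601650-98601769, minus strand): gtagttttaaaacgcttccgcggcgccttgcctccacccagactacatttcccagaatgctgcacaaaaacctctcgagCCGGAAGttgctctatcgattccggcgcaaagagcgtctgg
Mrps21 (chr3:95871485-95871604, minus strand): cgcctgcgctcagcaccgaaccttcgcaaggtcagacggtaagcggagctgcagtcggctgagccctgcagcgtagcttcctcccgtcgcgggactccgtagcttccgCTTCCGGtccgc
Mrpl52 (chr14:54426819-54426938, plus strand): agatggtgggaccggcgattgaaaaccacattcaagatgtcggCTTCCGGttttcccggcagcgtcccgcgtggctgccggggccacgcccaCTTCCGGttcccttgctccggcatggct
Mrpl33 (chr5:31613861-31613980, plus strand): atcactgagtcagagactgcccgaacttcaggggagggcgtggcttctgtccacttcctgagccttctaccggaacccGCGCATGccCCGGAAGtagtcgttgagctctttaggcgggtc
Mrps18a (chr17:46110914-46111033, plus strand): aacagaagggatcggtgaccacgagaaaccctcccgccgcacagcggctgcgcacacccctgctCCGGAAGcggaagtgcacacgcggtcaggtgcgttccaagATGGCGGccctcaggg
Mrpl32 (chr13:14613008-14613127, minus strand): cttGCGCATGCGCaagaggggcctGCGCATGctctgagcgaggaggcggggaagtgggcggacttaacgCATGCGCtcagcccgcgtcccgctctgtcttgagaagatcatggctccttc
Mrpl42 held none of the 3 motifs in this stretch, Mrps5 held the Yy1 core, and Mrpl33 and Mrps18a each held matches to 2 different motifs. The first capitals of Mrpl32 hold 2 overlapping matches of the Nrf1 core, which reads nearly alike on both strands. Between the MA and Control groups, the median log2 fold change was -0.016 for the 25 members with the Gabp letters and -0.018 for the 43 without them. It was 0.047 for the 8 with the Nrf1 core, 0.053 for the 13 with the Yy1 core, and -0.023 and -0.026 for those without each. Without MA replicate 3 the medians with and without each motif were -0.085 and -0.079 for Gabp, 0.024 and -0.089 for Nrf1, and 0.0076 and -0.105 for Yy1.

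Many members share their start region with another gene. Of the 77 protein-coding members tested, 18 (23.4%) had the start of a protein-coding gene on the other strand within 1000 bases upstream, against 9.4% of 13025 tested protein-coding genes (GENCODE M21). Mrps12, whose protein belongs to the decoding site, starts 172 bases from Sars2, the mitochondrial seryl-tRNA synthetase, and their log2 fold changes were -0.17 and 0.21. Mrpl49 starts 59 bases from Fau, a gene of the cytosolic ribosome, with -0.08 and -0.03, and Mrps5 starts 128 bases from Zfp661, with 0.41 and -0.07. None of these neighbours passed the adjusted threshold (limma adjusted p from 0.622 to 0.941). Since 35 of the 77 overlap an annotated gene on the other strand, and strand use in counting is not stated in the methods, their values may include reads of the partner.

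Most transcripts of the mitochondrial ribosomal proteins lay above the median gene in the hippocampus. The median RPKM-type level of the 77 protein-coding members was 35.2, and 73 of the 77 lay above the median of all 13321 tested genes. The gene groups most like these lay higher. Their median levels were 244 for 78 nuclear oxidative phosphorylation subunits and 533 for 82 cytosolic ribosomal proteins. Although each ribosome carries most of these proteins as a single copy, levels per length spanned a 71.6-fold range. The highest small subunit member was Mrps21, the homolog of bacterial S21, with a mean level of 271. It was followed in that subunit by Mrps33 at 96.2, Mrps34 at 83.5, Mrps12 at 79.0 and Mrps23 at 73.4. The highest large subunit member was Mrpl52, a mitochondria-specific protein, at 198, followed by Mrpl33 at 117, Mrpl23 at 101.4, Mrpl41 at 101.2 and Mrpl27 at 94.6. Mrpl23 and Mrpl41 lie near the exit of the peptide tunnel and Mrpl27 near the peptidyl transferase centre. The lowest protein-coding member was Mrpl1, the protein of the mobile L1 stalk, at 3.79. Such levels depend on the length used for each gene. Annotated transcripts of Mrps21, Mrpl52 and Mrpl33 were short, at 405, 418 and 478 bases, and that of Mrpl1 had 3431. Mrps25, with 6073 bases, went the other way, at a level of 54.3. The part of length in this ranking was not tested. The median was 34.5 in the large and 39.3 in the small subunit.

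**Figure D1:**
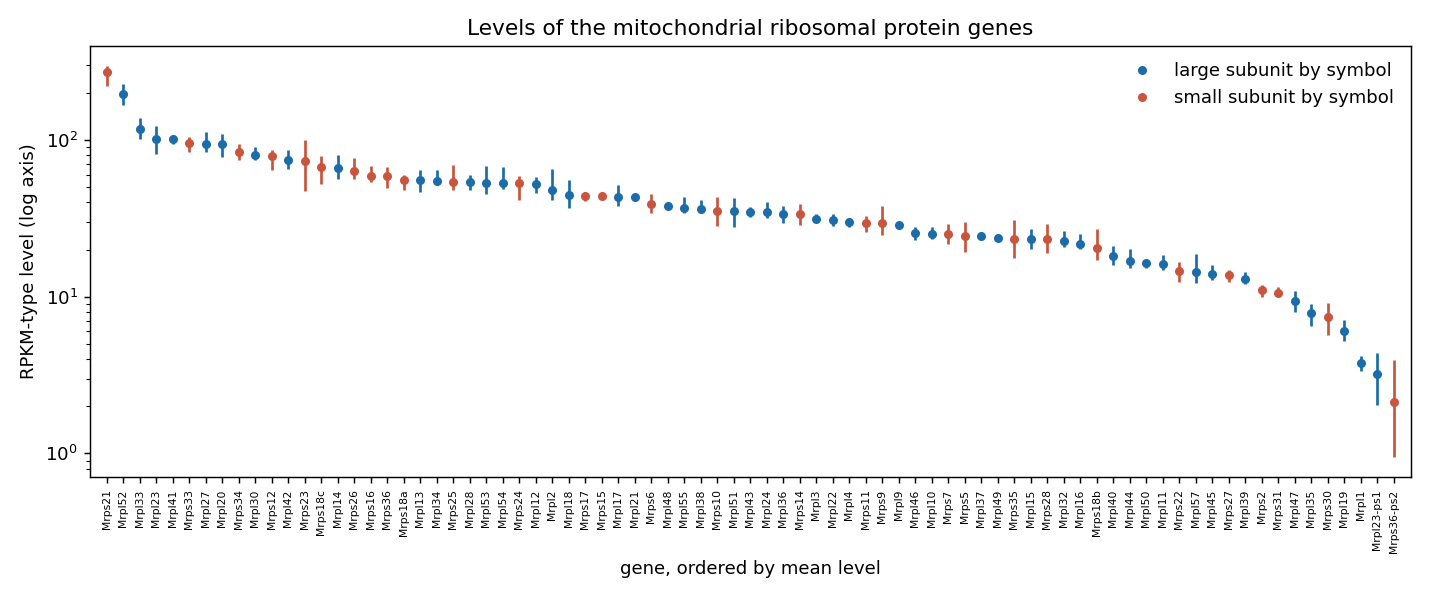
RPKM-type level of each of the 79 members that passed the filter, on a log axis, ordered by the mean of the 6 libraries (points), with lines from the lowest to the highest library and colors for the subunit given by the symbol. Mrps21 at 271 and Mrpl52 at 198 stand highest, and most members lie between 10 and 100, while Mrpl1 and the pseudogenes Mrpl23-ps1 and Mrps36-ps2 lie lowest.

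The bacterial S18 protein has 3 mammalian counterparts, and all 3 were expressed. Mrps18c had a mean level of 67.0 (range over libraries 52.4 to 78.7), Mrps18a of 55.4 (48.3 to 59.9) and Mrps18b of 20.6 (17.0 to 26.9). Mrps18b thus lay below the other 2 in each library, while the ranges of Mrps18a and Mrps18c overlapped.

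To learn whether repeated MA exposure went with altered mitochondrial translation capacity at the RNA level, the libraries labelled MA were compared with those labelled Control. Of the 81 members, 79 passed the filter of a level of at least 0.5 in at least 3 libraries. At an adjusted p under 0.05, 0 of the 79 were called (limma, Benjamini-Hochberg over 13321 genes), where 35 of all tested genes (0.263%) did. At an unadjusted p under 0.05, 1 member was higher in MA (4.99% of all tested genes) and 2 were lower (5.46%), so 3 of 79 passed, fewer than the 10.4% of all tested genes. The groups did not overlap for 4 members that were higher in MA (7.32% of all tested genes) and 5 that were lower (10.2%). Of the 79, 34 had a positive and 45 a negative log2 fold change, and 52.7% of all tested genes were negative. The median was -0.017, with quartiles of -0.11 and 0.05, beside a median of -0.010 over all tested genes.

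The highest fold change belonged to Mrps5, the homolog of bacterial S5, which lines the channel where messenger RNA enters the small subunit. The gene spans chr2:127587222-127606829 on the plus strand (GRCm38). Its log2 levels were 4.597, 4.34 and 4.41 in the Control libraries and 4.93, 4.67 and 4.96 in the MA libraries, replicates 1 to 3. Each MA library lay above each Control library, although MA replicate 2 exceeded the highest Control library by little. The difference was 0.41 on the log2 scale (standard error 0.11, limma unadjusted p = 0.00836, adjusted p = 0.290), and the exact two-sided permutation test gave p = 0.1, the smallest that 3 against 3 libraries allow. Over its 17 alternative settings the adjusted p ran from 0.0955 to 0.702.

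The other 5 members of smallest p among those higher in MA were Mrps10, Mrpl16, Mrpl17, Mrpl10 and Mrpl35, and none passed an unadjusted p of 0.05. Mrps10, of the head of the small subunit, was 5.03 ± 0.17 in Control and 5.31 ± 0.17 in MA on the log2 scale (SD, n = 3 each), and its groups overlapped. Mrpl16, which lies near the site where aminoacyl-tRNA enters, was 4.41, 4.42 and 4.45 in the Control libraries and 4.71, 4.52 and 4.56 in the MA libraries. Its groups did not overlap, and the means differed by 0.17 (standard error 0.08). The limma adjusted p was 0.547. Mrpl10, the base of the stalk that recruits translation factors, was 4.65 ± 0.04 in Control and 4.77 ± 0.07 in MA (SD, n = 3 each), also without overlap. The log2 fold changes of Mrpl17 and Mrpl35 were 0.18 and 0.16, and their groups overlapped. Mrpl21 was the remaining member with each MA library above each Control library, by a mean of 0.05.

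Among protein-coding members, Mrpl42 alone passed an unadjusted p of 0.05 in the lower direction. Mrpl42 is a mitochondria-specific protein of the large subunit, and its gene spans chr10:95480805-95501940 on the minus strand. Its log2 levels were 6.38, 6.44 and 6.28 in the Control libraries and 6.06, 6.07 and 6.21 in the MA libraries. The groups did not overlap, and MA replicate 3 was nearest to the Control libraries. The mean difference was -0.25 (standard error 0.08, limma unadjusted p = 0.0179, adjusted p = 0.360), with an adjusted p from 0.0448 to 0.829 over 17 alternatives. With the replicate number as a block its unadjusted p was 0.0682.

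Mrps22, a mitochondria-specific small subunit protein whose gene is mutated in a human mitochondrial disease, was 4.13, 4.04 and 3.96 in the Control libraries and 3.92, 3.75 and 3.90 in the MA libraries. The groups did not overlap, by a margin smaller than the spread within either group, and the log2 fold change was -0.19 (limma adjusted p = 0.554). Mrpl1 was 2.34 ± 0.03 in Control and 2.17 ± 0.04 in MA (SD, n = 3 each), without overlap, and Mrpl49 was the other protein-coding member of this kind, at -0.08. Mrpl18, the homolog of the bacterial protein that binds 5S RNA, had a log2 fold change of -0.23 with overlapping groups.

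Mrps36 carries a ribosomal symbol, but its protein is known today as Kgd4, a component of the alpha-ketoglutarate dehydrogenase complex. Its log2 levels were 5.98, 6.01 and 6.08 in the Control libraries and 5.65, 5.68 and 6.00 in the MA libraries. MA replicates 1 and 2 lay below all Control libraries, and MA replicate 3 lay among them. The mean difference was -0.25 (standard error 0.11), and the limma adjusted p was 0.482. Without MA replicate 3 it was -0.37 with a limma adjusted p of 0.0466, and over 17 alternatives the adjusted p ran from 0.0383 to 0.833.

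**Figure D2:**
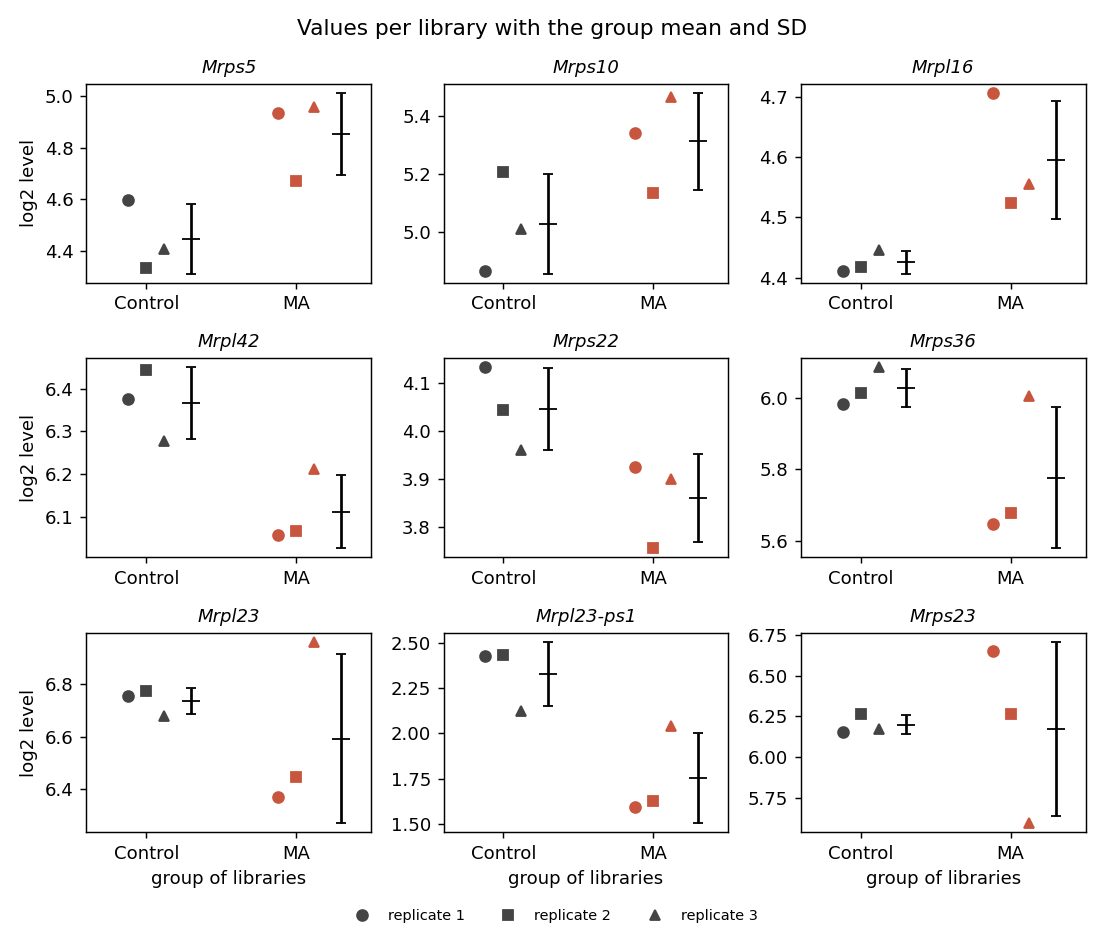
Log2 level of 9 members in each library, with a marker for each replicate number and bars for the group mean ± SD (n = 3), each panel on its own scale. Mrps5 and Mrpl16 lie higher and Mrpl42, Mrps22 and Mrpl23-ps1 lower in every MA library, whereas MA replicate 3 is at the Control level or above for Mrps36 and Mrpl23 and far below for Mrps23.

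The smallest p of all members was that of Mrpl23-ps1, a processed pseudogene at chr2:74591330-74591909 on the minus strand, for which reads cannot be assigned with certainty. Of its 580 annotated bases, 540 aligned to a transcript of Mrpl23, and all 540 were identical. Its log2 levels were 2.43, 2.43 and 2.12 in the Control libraries and 1.60, 1.62 and 2.04 in the MA libraries. The groups did not overlap, and the means differed by -0.57 (standard error 0.16, limma unadjusted p = 0.00748, adjusted p = 0.279). Without MA replicate 3 it was -0.72 with a limma adjusted p of 0.0485, and the adjusted p ran from 0.0248 to 0.740 over 16 alternatives. The parent gene Mrpl23 was 6.76, 6.77 and 6.68 in the Control libraries and 6.37, 6.45 and 6.96 in the MA libraries, so MA replicates 1 and 2 were the lowest and MA replicate 3 the highest of all.

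The other pseudogenes were Mrps36-ps1, Mrps36-ps2 and Mrpl48-ps, whose annotated sequences were 99.3%, 99.0% and 98.1% identical to their parents. Mrps36-ps1 and Mrpl48-ps did not pass the filter, with log2 levels from 0 to 1.33 and from 0 to 0.40 over the libraries. Mrps36-ps2 passed it and ranged from 0.96 to 2.30, with both ends of that range in MA libraries.

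Large and small subunit members differed little in their fold changes. The median was -0.007 for the 49 tested large subunit members, of which 26 were negative, and -0.038 for the 30 small subunit members, of which 19 were negative. The difference was 0.031. Without the pseudogenes the medians were -0.006 and -0.027, and the difference was 0.021. Mrps36 is counted as small in both cases. In single libraries, the median deviation of the large less that of the small subunit had an SD of 0.033 within groups. That SD describes single libraries and is not the error of the difference between groups of 3. No test was made over the lists, which were chosen with results known. Mrps18a and Mrps30 are named for the small subunit and are placed in the large subunit by ribosome structures. Their log2 fold changes were -0.15 and -0.22, and with both counted as large the difference was 0.014. The 45 tested members with the numbers of bacterial homologs (to 36 in the large and 21 in the small subunit) had a median of -0.018, and the 34 with higher numbers, which are mostly mitochondria-specific, -0.016. These medians were -0.079 and -0.077 without MA replicate 3.

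The members moved together by library, and the MA libraries went both ways. In MA replicate 1, 20 of 79 members lay above their own mean over the 6 libraries, and in MA replicate 2 it was 16. In MA replicate 3, 63 of 79 (79.7%) lay above it, where 48.0% of all tested genes did. The median deviation from the 6-library mean was -0.095, -0.073 and 0.15 on the log2 scale in MA replicates 1, 2 and 3. In the Control libraries it was 0.015, 0.064 and -0.032. Over all tested genes these medians lay between -0.012 and 0.011. Normalization between libraries, whose method is not given, would hold the medians over all genes near 0.

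Both subunits showed this pattern. Large subunit medians in MA replicates 1, 2 and 3 were -0.075, -0.069 and 0.15, and small subunit medians were -0.13, -0.12 and 0.17. MA replicate 3 was the highest of the MA libraries for 62 of 79 members (78.5%, against 41.0% of all tested genes) and the highest of all 6 for 43 (54.4%, against 25.8%). The SD within the MA group exceeded that within the Control group for 61 of 79 members (77.2%), which was also so for 71.1% of all tested genes. The median SD of the members was 0.084 in Control and 0.17 in MA.

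**Figure D3:**
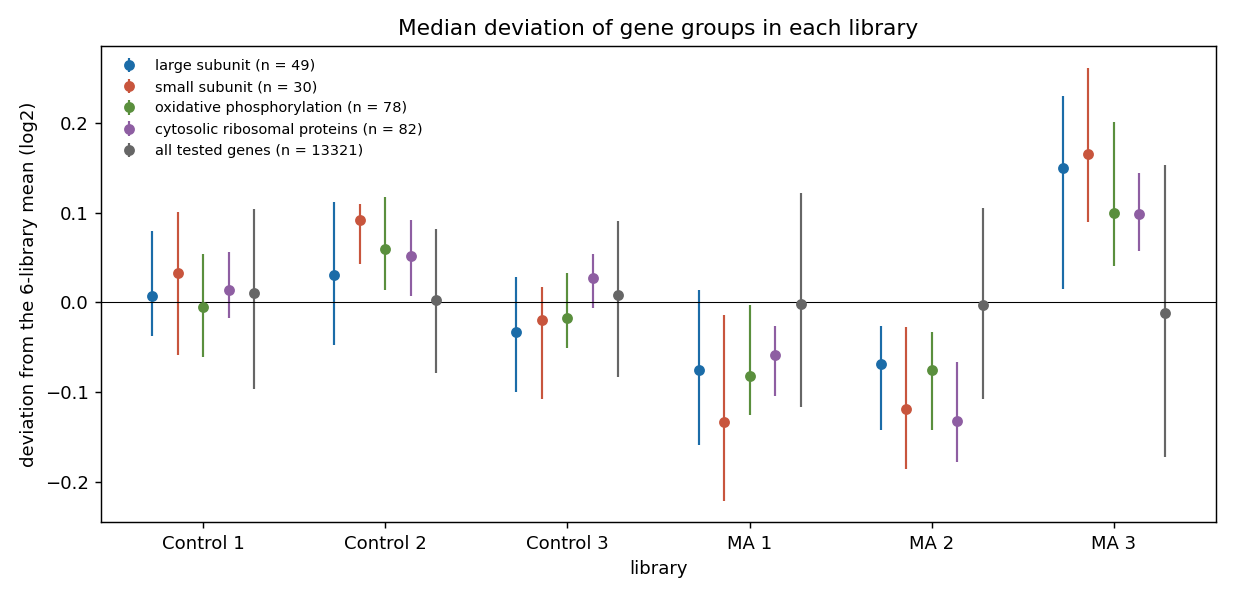
Median deviation of each gene group from its 6-library mean in every library (points, log2 scale), with lines from the lower to the upper quartile over genes. The members of both subunits lie below 0 in MA replicates 1 and 2 and above 0 in MA replicate 3, where the medians are 0.15 and 0.17. All tested genes stay near 0 in each library, where normalization between libraries would hold them.

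Among the protein-coding members, the largest SD within the MA group was that of Mrps23, followed by Mrps35. Mrps35 was 4.63, 4.79 and 4.61 in the Control libraries and 4.28, 4.22 and 4.999 in the MA libraries, so its MA replicates lay on both sides of the Control range. Mrps23, a mitochondria-specific protein, ran the other way, with 6.16, 6.26 and 6.17 in the Control libraries and 6.65, 6.27 and 5.596 in the MA libraries. Its mean differed by only -0.03 between the groups (standard error 0.24). Mrps35 was singled out after its values were seen.

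Without MA replicate 3, the remaining comparison of 2 MA with 3 Control libraries leaned lower. The median log2 fold change of the 79 members was -0.079, beside -0.008 over all tested genes, and 60 of 79 were negative (51.5% of all tested genes). The medians were -0.071 for the large and -0.12 for the small subunit. The groups did not overlap for 33 members that were lower in MA (22.1% of all tested genes) and 7 that were higher (20.8%). At an unadjusted p under 0.05, 18 were lower (11.4% of all tested genes) and 2 higher (11.9%), 20 in all (23.3%). At an adjusted p under 0.05 (limma), 2 members were called (1.93% of all tested genes), Mrps36 and Mrpl23-ps1, both lower. When limma's quality weights were used, which gave MA replicate 3 a weight of 0.194 and the other libraries 0.937 to 2.45, 3 of 79 members were called (4.4% of all tested genes), Mrps36, Mrpl42 and Mrpl23-ps1, all lower. With these weights 62 of 79 were negative (51.6% of all tested genes), and at an unadjusted p under 0.05, 21 were lower (13.4%) and 1 higher (12.9%), 22 in all (26.3%). No protein-coding member known to be part of the ribosome other than Mrpl42 was called in any of the alternatives run.

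**Figure D4:**
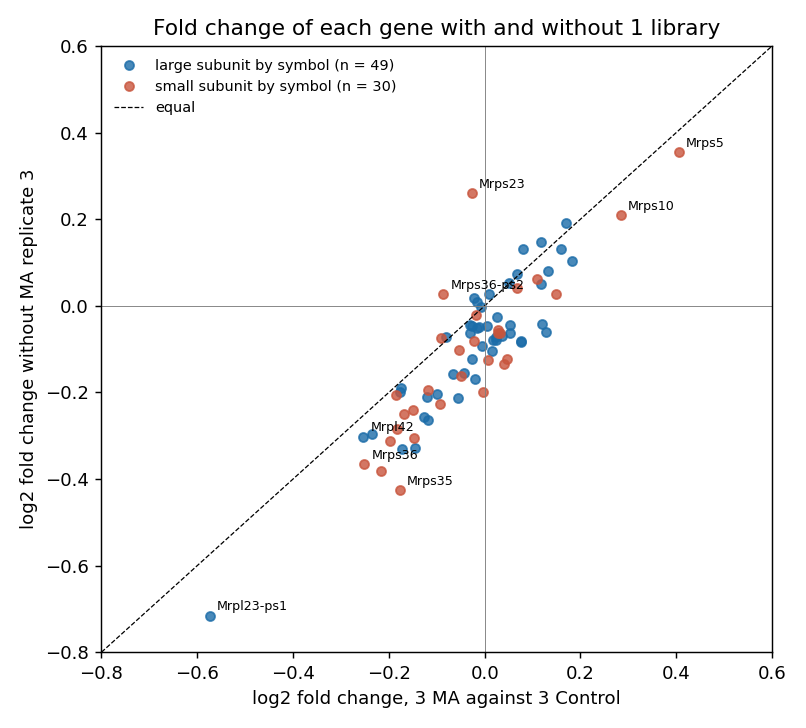
Log2 fold change of each of the 79 tested members with all 6 libraries (horizontal axis) against the value without MA replicate 3 (vertical axis), colored by subunit, with the dashed line of equality. Most points lie below the line, Mrps5 and Mrps10 stay positive on both axes, and Mrps23 lies far above the line.

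Transcript length moved with the library pattern. The members were short, with a median transcript of 1029 bases against 2199 over all tested genes, and 42 of the 79 fell among the 2663 shortest genes, of 205 to 1059 bases, when tested genes were split by length into 5 bins. Over all genes of that bin, the median deviation was -0.037, -0.047 and 0.093 in MA replicates 1, 2 and 3, and over the bin of longest genes it was 0.043, 0.039 and -0.14. After each library was corrected for transcript length and GC content, an alternative added after the data were seen, the members' medians in MA replicates 1, 2 and 3 were -0.065, -0.043 and 0.081. The median log2 fold change was then -0.010, with 42 of 79 negative (49.5% of all genes corrected), and 0 members passed the adjusted threshold (0.241%). At an unadjusted p under 0.05, 6 were lower (5.4%) and 2 higher (5.55%), 8 in all (10.9%), and the groups did not overlap for 8 lower (9.83%) and 3 higher members (8.14%). The part of length in the library pattern was not tested beyond this correction.

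Before any correction, the gene groups most like these also lay lower in MA replicates 1 and 2 and higher in MA replicate 3. The 78 nuclear oxidative phosphorylation subunits, whose complexes hold the products of the mitochondrial ribosome, had medians of -0.082, -0.076 and 0.0999 in MA replicates 1, 2 and 3. The 82 cytosolic ribosomal proteins had -0.059, -0.13 and 0.098. After the length and GC correction these values were -0.045, -0.024 and 0.023 for the former and -0.020, -0.091 and 0.012 for the latter. Both lay nearer to 0 in MA replicate 3 than the members at 0.081, whereas some of the lists below did not. Median log2 fold changes were -0.026 for the oxidative phosphorylation subunits and -0.054 for the cytosolic ribosomal proteins. In both groups 0 genes passed the adjusted threshold (limma). Without MA replicate 3 these medians were -0.105, with 60 of 78 negative, and -0.125, with 76 of 82 negative. The difference of these medians from that of the mitochondrial ribosomal proteins was not tested.

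Other genes of mitochondrial protein synthesis came from lists of general knowledge. In each of these lists, 0 genes passed the adjusted threshold (limma). After the length and GC correction the median deviation in MA replicate 3 was 0.177 for ribosomal proteins with other symbols and 0.143 for translation factors. It was 0.088 for aminoacyl-tRNA synthetases, 0.070 for ribosome assembly and ribosomal RNA modification, and 0.0015 for mitochondrial transcription. The members were at 0.081, and the differences were not tested. Ribosomal proteins with other symbols (Dap3, Ptcd3, Chchd1, Aurkaip1, Gadd45gip1 and Ict1) centred on a median difference of -0.030, and 2 of the 6 were positive. The median was -0.116 without MA replicate 3, and 5 were negative. The smallest p among them was that of Ict1, a peptidyl-tRNA hydrolase built into the large subunit, at 0.12 (limma adjusted p = 0.753). Among 14 translation factors, such as initiation and elongation factors, 1 was higher at an unadjusted p under 0.05 (4.99% of all tested genes). The median was 0.053 and turned to -0.0074 without MA replicate 3. The gene that was higher at that p was Guf1, an elongation factor of the EF4 type, which was 2.77 ± 0.10 in Control and 3.003 ± 0.026 in MA (SD, n = 3 each), with a limma adjusted p of 0.458.

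For 25 genes of ribosome assembly and ribosomal RNA modification the median was 0.009, with 10 negative, and 0 passed an unadjusted p of 0.05 (10.4% of all tested genes). The median was -0.065 without MA replicate 3, with 17 negative. Rnmtl1, a methyltransferase of the large ribosomal RNA, came nearest at -0.25 (limma adjusted p = 0.488). Of 22 mitochondrial aminoacyl-tRNA synthetases and related enzymes, 1 passed an unadjusted p of 0.05, against 10.4% of all tested genes, and the median was 0.007 (-0.035 without MA replicate 3). The 1 was Gatb, a subunit of the enzyme that makes glutaminyl-tRNA, at -0.46 (standard error 0.18, limma adjusted p = 0.442).

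Among 16 genes of mitochondrial transcription and its nuclear regulators, 1 passed an unadjusted p of 0.05, Gabpa, against 10.4% of all tested genes. The median of the list was -0.062, and -0.13 without MA replicate 3. Gabpa encodes the DNA-binding subunit of Gabp, the factor whose letters were counted in the promoters. Its log2 levels were 2.82, 2.65 and 2.78 in the Control libraries and 2.46, 2.47 and 2.28 in the MA libraries, so each MA library was lower. The MA mean less the Control mean was -0.34 (standard error 0.10, limma unadjusted p = 0.0120, adjusted p = 0.329).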

How the data were processed

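Hippocampal RNA was profiled by RNA-seq in 3 Control and 3 MA libraries. According to the paper's methods, alignment by the authors was with Hisat2, counting with featureCounts, and FPKM followed from counts and gene length. The submitters' processing notes name Bowtie 0.12.2 and the builds mm8 and mm9, so the build is unsettled and GRCm38 coordinates are given for location only. The values that the authors deposited, named as RPKM, lie on a log scale read as log2 with an offset of 1, and how they were transformed and normalized between libraries is not given in the sources used here. Total depth is unknown. The labels name a Qiagen and a TruSeq kit and the methods RNA-Bee and NEB Next Ultra. Groups came from the sample titles, and no batch is named in the sources used here.

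The design had foreseen log2 values, which were tested as deposited. Genes with a back-transformed level of at least 0.5 in at least 3 libraries, 13321 in all, were fitted with limma 3.58.1 in R 4.3.3 (lmFit, eBayes with trend, no covariate, Benjamini-Hochberg over all tested genes). Simulated tables with 200 changed genes served as a check, with a median of 75.5% of changes of 1 on the log2 scale recovered and 4.17% false calls over 10 tables of 13321 genes. Genes were drawn independently, without a library like MA replicate 3. Changes as small as those of the members, from -0.573 to 0.405, were not simulated, so their recovery is unknown. Alternatives were pseudocounts of 0.1 and 0.01, no filter, a minimum mean of 5, median centring, quantile normalization, no trend, quality weights, a replicate block, each library left out, and, added later, a length and GC correction (lowess, span 0.3) and leaving out pseudogenes. Motifs and sequences come from the RefSeq promoter table, and all 81 member IDs matched GENCODE M21.

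The members and lists were chosen with earlier results of these data known. Named members were the 6 of smallest p in each direction, the 5 of highest level in each subunit, the 3 lowest tested, those under the filter, any sharing all values with another row, Mrps18a and Mrps30, and the gene of smallest p in each list. No member shared all values with another row. Other genes named, such as the remaining members without overlap, Mrps35, the Mrps18 paralogs, Mrpl32 and the neighbours at shared start regions, were chosen after their values or matches were seen.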

Additional observations from a re-analysis of the deposited data

How the results depend on the processing

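Precision is limited by 3 libraries a group of unknown depth. The replicate numbers did not pair the libraries: deviations of same-numbered libraries correlated at -0.197, -0.242 and -0.337 across genes, and with the replicate block 0 members passed the adjusted threshold and 1 was lower at an unadjusted p under 0.05. That count was also 1 with a minimum mean of 5 and without pseudogenes, 21, of 22 in all, with quality weights, and 6 lower and 2 higher, 8 in all, with the length and GC correction, an alternative chosen after seeing the data, as was leaving out pseudogenes. Members without overlap that were lower numbered 3 with the minimum mean of 5 and 8 with the length and GC correction. Quality weights called 3 members. Leaving out each library in turn gave 0 to 2 called members and 2 to 20 at an unadjusted p under 0.05 (1 to 2 higher, 1 to 18 lower). Without overlap, 5 to 8 were higher and 5 to 33 lower. The median ran from -0.079 to 0.026, and the difference of large minus small subunit from 0.018 to 0.076. Smaller groups overlap less often over all genes too. Without MA replicate 3, 22.1% of all tested genes were lower and 20.8% higher without overlap, against 10.2% and 7.32% with all libraries. Shares over all genes are not given for the other libraries left out, the replicate block or the minimum mean of 5. Those counts are therefore no result about the members. The upper ends of the lower counts came without MA replicate 3, that of the difference without MA replicate 2, and that of 8 higher without Control replicate 2, and without Control replicate 3 the lower count was 10. No other setting that kept all libraries moved these counts by over 1.5 times, and the cause was not tested.

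Signs of members near 0 were not stable. With quality weights the log2 fold change turned to -0.025 for Mrpl27 and for Mrps34, 0.12 for Mrps23 and 0.25 for Mrps36-ps2, and with the length and GC correction Mrps34 was -0.035, with or without the replicate block. Leaving out each library gave -0.16 to 0.059 for Mrpl52, -0.17 to 0.040 for Mrpl33, -0.048 to 0.038 for Mrpl41, -0.063 to 0.15 for Mrpl27, -0.057 to 0.11 for Mrps34, -0.27 to 0.26 for Mrps23 and -0.48 to 0.19 for Mrps36-ps2.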
